A study of Mus musculus with 17 samples.

Results

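The arrestin-domain and FOXO axis is followed here through 10 mouse genes, selected by symbol from the 26422 genes that the count files list. They are the arrestin-domain genes Arrdc1, Arrdc2, Arrdc3, Arrdc4 and Txnip, the forkhead factors Foxo1, Foxo3 and Foxo4, the insulin receptor substrate Irs2 and the insulin receptor Insr. They were picked by symbol with earlier results of these data known. The study had already named Arrdc3 among genes higher with KPT-330 in stem II and III cells of these samples. All 10 passed the filter on low counts when cells of a library were summed.

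Arrestin-domain proteins of the α-arrestin family bind membrane proteins and recruit ubiquitin ligases of the NEDD4 family, which steer receptors and transporters away from the cell surface. Txnip, the thioredoxin-interacting protein, and Arrdc4 limit glucose uptake and are induced by the glucose-sensing factors MondoA and ChREBP. FOXO factors are held in the cytoplasm when insulin or growth factors activate AKT, and they leave the nucleus partly through Exportin 1 (XPO1), the nuclear export receptor that KPT-330 inhibits. Insr and Irs2 carry the insulin signal at the membrane and are themselves known targets of FOXO factors.

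The libraries were made from small intestinal organoids, cultures of intestinal epithelium grown from wild-type C57BL/6 mice, by Seq-Well S3, a single-cell RNA-sequencing method that counts unique molecular identifiers (UMIs). All organoids received ENR medium, which holds EGF, Noggin and R-spondin 1, and each sample pooled the organoids of several Matrigel domes. At day 0 they came from ENR+CV, the stem-cell medium with CHIR99021 and valproic acid (2 libraries). They were then moved to ENR+CD, the Paneth cell differentiation medium with CHIR99021 and DAPT, alone or with 160 nM KPT-330. Control ENR+CD libraries number 1 at each of days 0.25, 1, 2, 3 and 4 and 2 at day 6. ENR+CD+KPT-330 libraries number 1 at days 0.25, 1, 2 and 4 and 2 at each of days 3 and 6. The labels do not say what separates replicates, so the p-values given here measure only the spread between libraries, which may be technical. Most days had 1 library per condition. In the tests of KPT-330 against control, this spread therefore also holds differences in the KPT-330 effect between days.

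Positions are on GRCm38 (mm10, GENCODE M21), and the bases upstream of gene starts come from RefSeq on GRCm38.p6, which held 8 of the 10 genes. The 250 bases before the start are shown for 3 of them because Txnip and Arrdc4 are the glucose-responsive pair and Arrdc3 had the largest response to KPT-330 among the 10. Capitals mark matches, on either strand, to the FOXO core TGTTTAC, the E-box CACGTG or a form of the carbohydrate response element. That form is a pair of CACGNG boxes in the same orientation, set 5 bases apart, and other forms of the element were not searched for.
Txnip, chr3:96557707-96557956, plus strand: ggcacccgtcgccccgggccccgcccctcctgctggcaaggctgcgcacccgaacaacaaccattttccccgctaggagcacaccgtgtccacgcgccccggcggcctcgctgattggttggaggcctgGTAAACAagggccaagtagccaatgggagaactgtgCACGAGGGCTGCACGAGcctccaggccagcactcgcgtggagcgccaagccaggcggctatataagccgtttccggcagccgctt
Arrdc4, chr7:68749239-68749488, minus strand: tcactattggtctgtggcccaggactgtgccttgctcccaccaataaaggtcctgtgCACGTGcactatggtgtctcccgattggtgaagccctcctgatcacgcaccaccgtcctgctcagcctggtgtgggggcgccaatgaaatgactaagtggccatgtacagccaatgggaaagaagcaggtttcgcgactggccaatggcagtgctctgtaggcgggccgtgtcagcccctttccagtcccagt
Arrdc3, chr13:80883134-80883383, plus strand: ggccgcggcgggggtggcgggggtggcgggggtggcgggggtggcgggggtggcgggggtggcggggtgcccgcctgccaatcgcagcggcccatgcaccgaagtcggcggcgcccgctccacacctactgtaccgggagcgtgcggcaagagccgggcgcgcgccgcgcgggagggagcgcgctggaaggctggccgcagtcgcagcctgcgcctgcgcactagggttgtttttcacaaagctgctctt

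The Txnip window held both a FOXO core, which 3.17% of 32851 mouse promoter windows of this length held, and this form of the carbohydrate response element, which 15 windows held. The Arrdc4 window held 1 E-box, as did that of Irs2, and E-boxes were in 6.02% of all windows. None of the 3 motifs was in the window shown for Arrdc3, in its other 2 annotated windows, or in those of Arrdc1, Arrdc2, Foxo1 and Foxo3. These matches describe letters in a window, and no binding was measured.

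Of 26229 barcodes, 19877 were kept as cells by the merged count table, between 531 and 1547 per library, and 14 barcode sequences occurred in more than 1 library. Summed UMIs per library ran from 3458887 to 12433109. The 6 epithelial genes on a marker list (Epcam, Cdh1, Krt8, Krt18, Vil1 and Cdx2) were found in all 17 libraries, with a summed level of 3302 to 4546 CPM. Among 12 markers of immune, stromal, endothelial and glial cells, the summed level was 6.14 to 36.4 CPM in control libraries and 7.22 to 71.1 CPM with KPT-330, nearly all of it Lyz2, a lysozyme gene with 2277 UMIs. Defining markers of these other cells were near 0, with 3 UMIs of Ptprc and 22 of Col1a1 over all 17 libraries. KPT-330 libraries were also shallower at the median (4517987 against 7982400 UMIs) and more dominated by a few genes. The 10 highest genes took 46.5% of the UMIs in replicate 1 of KPT-330 day 6, and 18.9% to 37.1% in the other 16 libraries. Scaling therefore matters for small changes. Values below are TMM-scaled CPM (UMIs of a gene per 1000000 UMIs of the library, with library sizes adjusted by the trimmed mean of M-values) unless stated. Scaling by plain library totals moved the median log2 fold of all genes to −0.26, from 0.00 with TMM. Xpo1, the gene of the protein that KPT-330 binds, was 2.42 to 3.49 times as high with KPT-330 on the 6 days (log2 fold 1.499 ± 0.09 SE, adjusted p = 9.41e-07, edgeR).

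Arrdc3 was higher with KPT-330 than in control organoids on each of the 6 days. Arrdc3, which links activated receptors to NEDD4-family ligases, stood at 47.3, 43.3, 57.0, 83.3 and 56.6 CPM in the control libraries of days 0.25, 1, 2, 3 and 4, and at 73.1 and 79.0 CPM in the pair of day 6. With KPT-330 it stood at 188 CPM at day 0.25, 154 CPM at day 1, 151 CPM at day 2, 164 and 152 CPM at day 3, 151 CPM at day 4, and 136 and 163 CPM at day 6. The lowest KPT-330 library lay above the highest control library, so the groups did not overlap. Where a day had 1 library on each side there is no replicate check, and the counting intervals (95%, exact, counting error only) of the KPT-330 to control ratio were 3.53 to 4.48 at day 0.25, 3.05 to 4.17 at day 1, 2.41 to 2.91 at day 2 and 2.35 to 3.02 at day 4. Over all 15 ENR+CD libraries, with day as a term, the log2 fold was 1.34 ± 0.13 (SE), with an adjusted p of 4.95e-05 (edgeR's quasi-likelihood test, Benjamini-Hochberg over 11777 genes). It passed the 0.05 threshold under all 18 alternative settings, with log2 folds from 1.08 to 1.45, and it was 1.08 with plain library totals. In sums over all cells, a change in the mix of cells and a change within cells cannot be told apart.

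**Figure D1:**
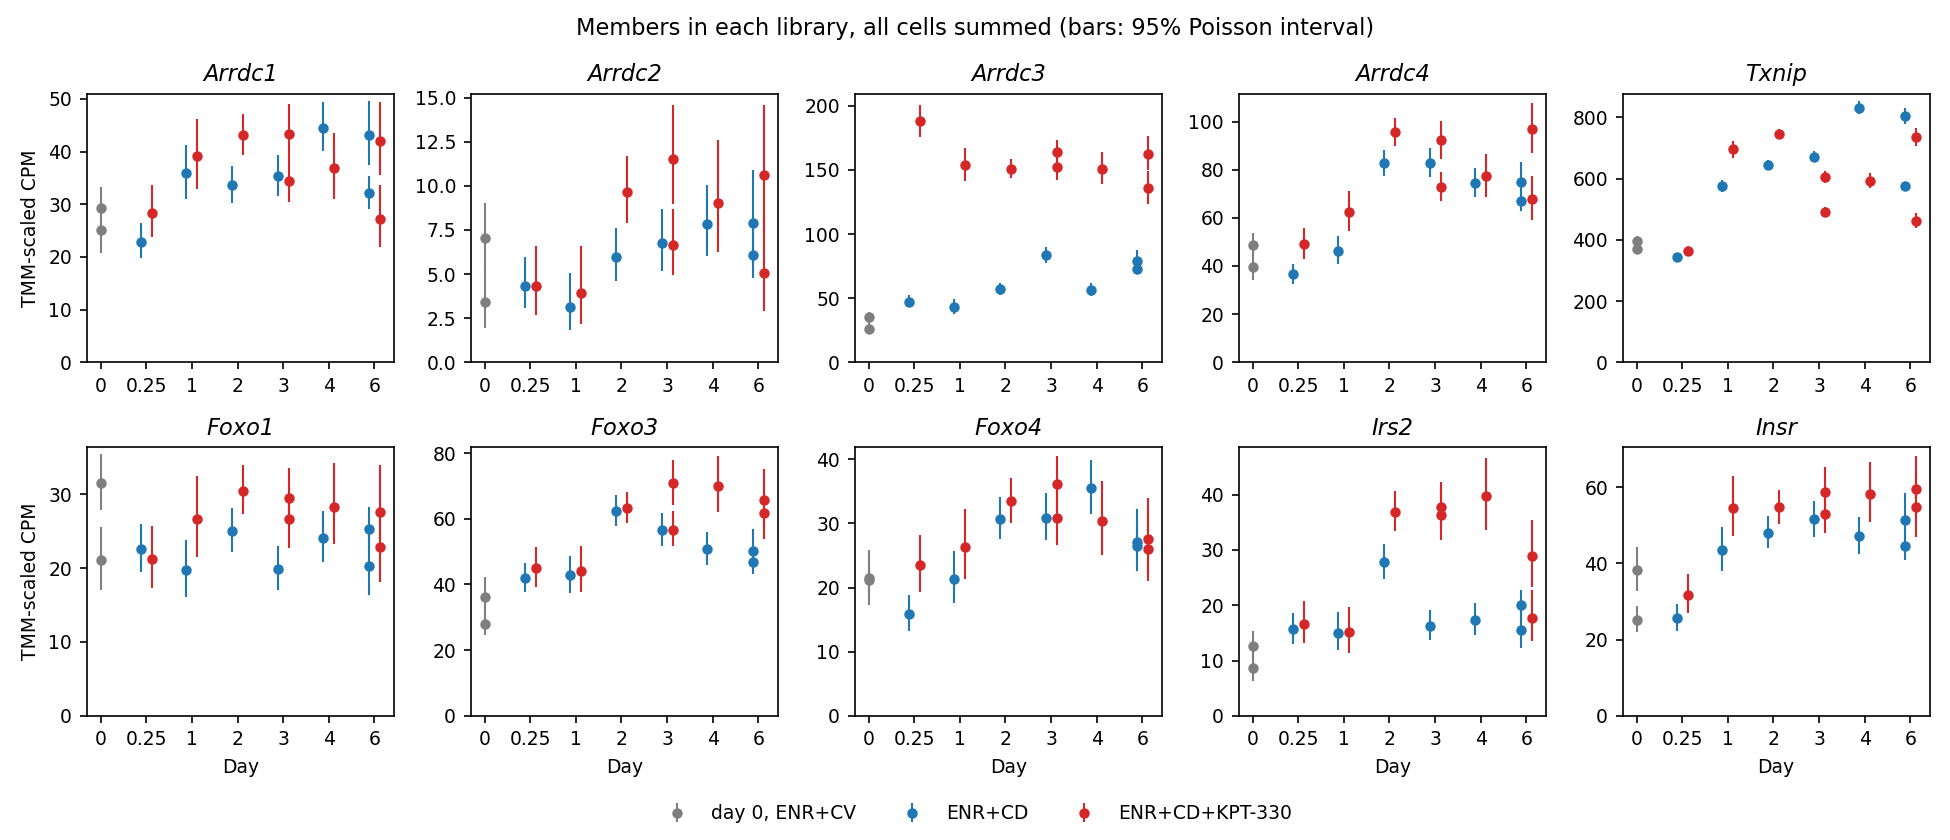
Level of each of the 10 genes in each of the 17 libraries, as TMM-scaled CPM (vertical axis, from 0) against day (horizontal axis, evenly spaced), with bars for 95% Poisson counting intervals and colours for ENR+CV, ENR+CD and ENR+CD+KPT-330. The KPT-330 points of Arrdc3 sit between 136 and 188 CPM, all above its control points at 43.3 to 83.3 CPM, while the points of the other 9 genes overlap.

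Of the 10 genes, 4 passed the test between KPT-330 and control, all of them higher, against 29.6% of the 11777 genes tested (15% higher and 14.6% lower). Those genes were Arrdc3, Foxo3, Irs2 and Insr. The median log2 fold of the 10 was 0.24, beside 0.00 for all genes tested. With library totals in place of TMM only Arrdc3 still passed, and 3 of the 10 folds were positive.

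The other arrestin-domain genes did not pass the test. Arrdc4, the closest relative of Txnip in this group, ran from 36.6 to 82.7 CPM in control libraries (median 74.5) and from 49.0 to 97.0 CPM with KPT-330 (median 75.0). Its log2 fold was 0.21 ± 0.09 (SE, adjusted p = 0.088, edgeR), and the ranges overlapped. Txnip, which binds thioredoxin and the glucose transporter GLUT1, ran from 344 to 832 CPM in control libraries (median 646) and from 364 to 745 CPM with KPT-330 (median 599). Its ratio of KPT-330 to control was 1.06, 1.21 and 1.15 on days 0.25, 1 and 2, and 0.82, 0.71 and 0.87 on days 3, 4 and 6, giving a log2 fold of −0.09 ± 0.13 (SE, adjusted p = 0.61, edgeR). The day 6 libraries alone spanned this difference, at 577 and 804 CPM in control and 463 and 736 CPM with KPT-330. Arrdc1, a regulator of vesicle budding at the plasma membrane, had a log2 fold of 0.08 ± 0.11 (SE, adjusted p = 0.59, edgeR). Arrdc2 was counted at only 3.16 to 11.5 CPM in ENR+CD libraries, and its log2 fold was 0.32 ± 0.18 (SE, adjusted p = 0.19, edgeR).

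Among the FOXO genes, Foxo3 passed the test narrowly. Foxo3, a factor linked to stress resistance and autophagy, ran from 41.9 to 62.4 CPM in control libraries (median 50.2) and from 44.2 to 70.8 CPM with KPT-330 (median 62.5). At days 4 and 6 KPT-330 libraries held 70.1, 65.6 and 61.8 TMM-scaled CPM and control libraries 50.9, 46.8 and 50.2. The ratio was 1.12 at day 3 and 1.01 to 1.08 at days 0.25 to 2. By plain library totals the day 6 values were 46.4 and 54.0 CPM with KPT-330 and 47.2 and 53.0 CPM in control. The difference in the KPT-330 effect between days 3 to 6 and days 0.25 to 2 did not pass (0.29 ± 0.15 SE, adjusted p = 0.50, edgeR). The log2 fold of KPT-330 over control was 0.23 ± 0.08 (SE, adjusted p = 0.046, edgeR). The call held in 3 of 18 alternatives. It was lost without either replicate of day 6 in either group, without replicate 2 of KPT-330 day 3, and without any single day, with adjusted p from 0.051 to 0.29 in those settings. It was also lost with DESeq2 (0.061), with all barcodes (0.060), without the filter on low counts (0.12) and with library totals, where the fold was −0.03. Foxo1, the FOXO factor best known for control of gluconeogenesis, had a log2 fold of 0.25 ± 0.10 (SE, adjusted p = 0.064, edgeR), and Foxo4 one of 0.13 ± 0.09 (SE, adjusted p = 0.30, edgeR).

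Both genes of the insulin receptor axis were higher with KPT-330 under TMM scaling. Irs2, the adaptor that couples the receptor to PI3K, was similar at days 0.25 and 1, at 15.6 and 15.04 CPM in control against 16.7 and 15.1 CPM with KPT-330. At day 2 it stood at 27.8 CPM in control and 36.9 CPM with KPT-330. At days 3 and 4 the control libraries held 16.2 and 17.3 CPM and the KPT-330 libraries 37.7, 36.4 and 39.7 CPM, about 2.28 and 2.30 times as high. At day 6 the groups overlapped, with 20.1 and 15.6 CPM in control and 28.8 and 17.7 CPM with KPT-330. The log2 fold over all days was 0.58 ± 0.17 (SE, adjusted p = 0.019, edgeR). The call was lost without day 3 (adjusted p = 0.0997, edgeR), without day 4 (0.065) and with library totals (0.097). Insr ran from 25.6 to 51.5 CPM in control libraries (median 47.0) and from 31.7 to 59.5 CPM with KPT-330 (median 54.7). By TMM-scaled CPM it was higher with KPT-330 on all 6 days, by ratios of 1.08 to 1.26. By CPM of plain library totals Insr was higher on 2 days and lower on 4. Its log2 fold was 0.25 ± 0.07 (SE, adjusted p = 0.013, edgeR). The call was lost without day 6 (adjusted p = 0.078, edgeR), without the filter on low counts (0.083) and with library totals, where the fold was −0.01.

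**Figure D2:**
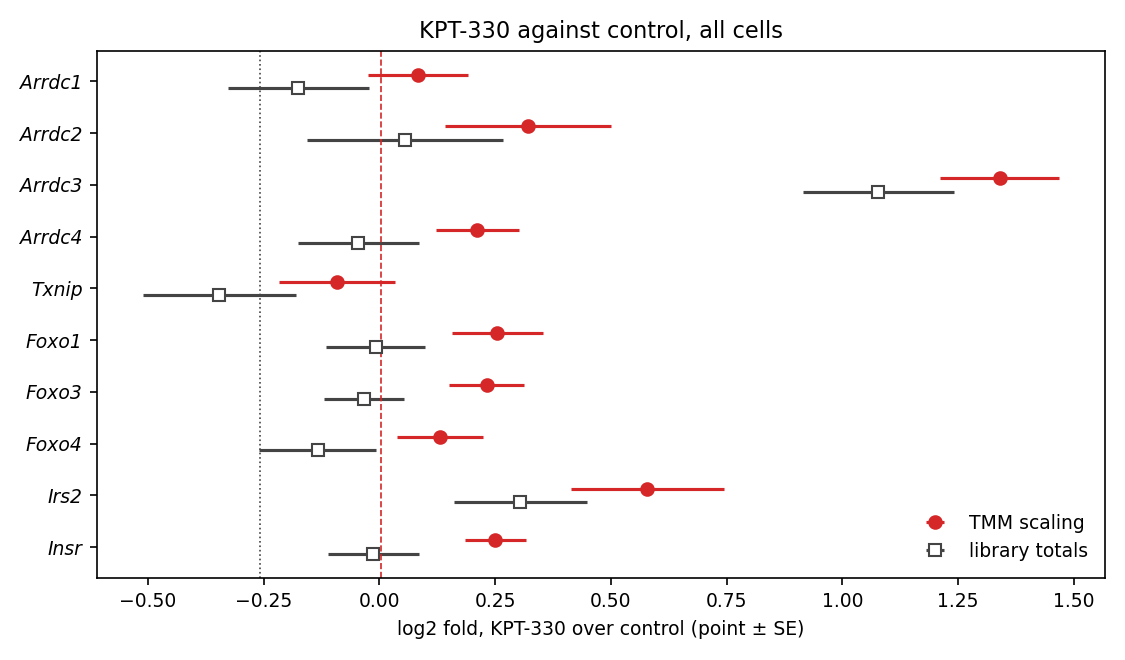
Log2 fold of KPT-330 over control for the 10 genes in all cells summed (horizontal axis, point ± SE, 15 libraries), with TMM scaling as filled circles and plain library totals as open squares; vertical lines mark the median of all genes under TMM (dashed) and library totals (dotted). Arrdc3 lies at 1.34 with TMM and 1.08 with library totals, while 6 genes that are positive under TMM are below 0 under library totals.

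Whether the response differed between early and late days was tested as an interaction over the same 15 libraries. No gene of 11777 passed (0% called by edgeR, with 1283 genes at an unadjusted p under 0.05 and 54 genes called by DESeq2). Arrdc3 had the smaller response at days 3 to 6, by −0.67 ± 0.18 (SE) on the log2 scale (adjusted p = 0.28, edgeR), as its ratios of 3.98, 3.56 and 2.65 at days 0.25, 1 and 2 and of 1.90, 2.67 and 1.96 at days 3, 4 and 6 show. Irs2 had the opposite sign, 0.64 ± 0.29 (SE, adjusted p = 0.45, edgeR). Without the filter on low counts the Arrdc3 difference passed (adjusted p = 0.035, edgeR), beside 349 genes called. The libraries of days 0.25 and 1 and replicate 1 of day 0 list 19823 to 21652 genes each and the other 12 list 15576 to 17849, so a difference between early and late days and this difference between libraries cannot be told apart. Control and KPT-330 libraries of a day fell in the same set.

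Cells were then grouped by markers to ask whether the changes were present within cell types. Clustering was done without the 10 genes, and clusters were named by the highest mean score of marker lists. Cluster 5, led by Zg16, Clca3, Fcgbp and Agr2, and cluster 12, led by Mbl2, Cyp3a13 and Apoa4, did not meet the naming rule and entered no named type. Cluster 12 held 160 KPT-330 cells and 2 control cells. Paneth-like cells came mostly from cluster 0 (led by Lyz1 and Defa21) with KPT-330, which held 1814 KPT-330 and 974 control cells, and mostly from cluster 2 (led by Ang4, with Clps and Nupr1) in control, where it held 1207 cells. Enteroendocrine-like cells came mostly from cluster 9, led by Cck, Gcg and Gip, with KPT-330 (486 against 356) and from the Neurog3-led cluster 7 in control (879 against 625). Each library's counts were summed per type where it held at least 20 cells, so that libraries and not cells are the replicates. Within types, 70 of the 80 pairs of gene and type could be tested, and 11 passed, 8 of them for Arrdc3. Over all genes, 2.27% of 65072 pairs of gene and type passed.

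Arrdc3 was higher with KPT-330 within all 8 named types. In stem I-like cells its CPM (of all UMIs in those cells) was 36.3 to 81.7 in the 6 control libraries (day 1 lowest) and 195 to 337 in the 6 KPT-330 libraries, with no overlap. The log2 fold there was 2.11 ± 0.14 (SE, adjusted p = 1.35e-13, edgeR, 12 libraries), where 4.56% of 8226 genes were called (2.78% higher and 1.77% lower). In stem II-like cells it was 2.34 ± 0.19 (SE, adjusted p = 2.07e-07, edgeR, 1.08% of genes called, 0.722% higher and 0.355% lower), from days 0.25, 1 and 2 only. In those cells it stood at 47.7, 22.8 and 37.0 CPM in control and at 196, 174 and 197 CPM with KPT-330. In stem III-like cells it was 1.59 ± 0.24 (SE, adjusted p = 0.0076, edgeR, 0.197% of genes called, 0.172% higher and 0.0246% lower), from 6 libraries over 3 days, without duplicates. Along the absorptive lineage it was 1.80 ± 0.23 in early enterocyte-like cells (SE, adjusted p = 0.00032, edgeR, 1.35% of genes called, 0.628% higher and 0.72% lower) and 2.08 ± 0.24 in enterocyte-like cells (SE, adjusted p = 4.78e-05, edgeR, 2.83% of genes called, 1.1% higher and 1.73% lower). Among secretory cells it was 1.49 ± 0.11 in enteroendocrine-like cells (SE, adjusted p = 1.57e-07, edgeR, 1.79% of genes called, 0.839% higher and 0.946% lower) and 1.11 ± 0.18 in early Paneth-like cells (SE, adjusted p = 0.00025, edgeR, 1.7% of genes called, 1.15% higher and 0.553% lower). The early Paneth-like fit held 7 libraries over 3 days. The smallest value of the 8 was that of Paneth-like cells, 0.59 ± 0.11 (SE, adjusted p = 0.0066, edgeR, 4.3% of genes called, 2.36% higher and 1.94% lower). All 8 calls held in every alternative that could be fitted, library totals included. The replicates left out were of days 3 and 6, and the stem II- and stem III-like fits hold none of these. For those types, leaving out replicates refitted the same libraries and tested nothing.

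Foxo3, Irs2 and Insr behaved otherwise. Foxo3 passed in Paneth-like cells, at 0.49 ± 0.13 (SE, adjusted p = 0.037, edgeR), and its log2 folds in the other 7 types lay between −0.29 and 0.21. That call held in 5 of 12 alternatives and was lost with labels by marker score (adjusted p = 0.13, edgeR), with finer clusters (0.12) and with library totals (0.12). It was also lost without replicate 2 of KPT-330 day 3 (0.065), without either replicate of control day 6 (0.079 and 0.071) and without replicate 2 of KPT-330 day 6 (0.071). Irs2 could be tested in 5 types, with log2 folds from −0.07 to 0.37, and passed in none. Insr was tested in all 8 and passed in none, with log2 folds from −0.23 to 0.32. Foxo4 in enterocyte-like cells was at 0.89 ± 0.24 (SE) with an adjusted p of 0.050004 (edgeR), just above the threshold.

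The size of the Arrdc3 response differed between stem-like and other cells. Summed per library over stem I-, II- and III-like cells, Arrdc3 ran from 29.4 to 75.0 CPM in the control libraries of ENR+CD and from 102 to 318 CPM with KPT-330. Over the other named types it ran from 35.5 to 100.3 CPM in control and from 102 to 157 CPM with KPT-330. The ranges did not overlap in either class. The lowest stem-like value, 102 CPM, came from replicate 1 of KPT-330 day 6, with 17 cells and 7 UMIs of Arrdc3. The log2 fold of KPT-330 over control was 1.99 ± 0.12 in stem-like cells (SE, adjusted p = 5.40e-11, edgeR) and 1.04 ± 0.14 in the other types (SE, adjusted p = 0.00030, edgeR). The difference itself, fitted within libraries, was −0.83 ± 0.17 (SE, adjusted p = 0.0052, edgeR, 3.61% of 10998 genes called, 2.25% lower and 1.35% higher), and Arrdc3 was the only one of the 10 to pass. It passed in all 9 alternatives, from −0.88 to −0.67. The class of other types pools cells with unlike responses, since enterocyte-like cells alone were at 2.08 and Paneth-like cells at 0.59.

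**Figure D3:**
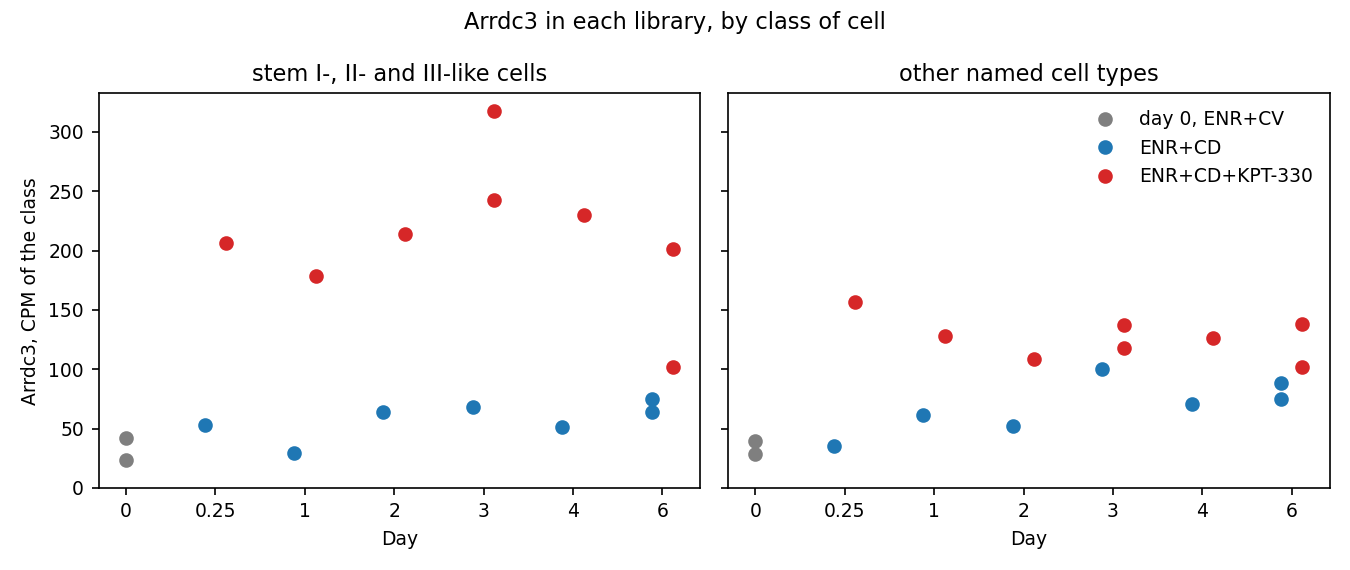
Arrdc3 in each library, as CPM of the UMIs of the class (vertical axis, from 0) against day (horizontal axis, evenly spaced), for stem I-, II- and III-like cells on the left and the other named types on the right. KPT-330 points reach 318 CPM in stem-like cells and 157 CPM in the other types, and control points of ENR+CD stay at or below 75.0 and 100.3 CPM.

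Txnip moved in opposite directions in enterocyte-like and Paneth-like cells. In enterocyte-like cells it stood at 198, 105 and 194 CPM in the control libraries of days 2, 3 and 4 and at 150 and 272 CPM at day 6. With KPT-330 it stood at 389 CPM at day 2, at 197 and 400 CPM at day 3, at 507 CPM at day 4 and at 282 CPM at day 6. It was higher with KPT-330 in each comparison within a day, although the ranges over all days overlapped. The log2 fold was 1.16 ± 0.20 (SE, adjusted p = 0.0024, edgeR, 10 libraries) and held in all 11 alternatives. In Paneth-like cells it stood at 725, 491 and 690 CPM in control at days 2, 3 and 4 and at 382 and 482 CPM at day 6. With KPT-330 it stood there at 449 CPM at day 2, at 387 and 265 CPM at day 3, at 340 CPM at day 4 and at 277 and 386 CPM at day 6, below the control libraries of the same day at days 2, 3 and 4 and overlapping them at day 6. The log2 fold was −0.46 ± 0.13 (SE, adjusted p = 0.049, edgeR, 11 libraries). That call held in 7 of 12 alternatives and was lost with labels by marker score (adjusted p = 0.17, edgeR) and finer clusters (0.14). It was also lost without replicate 2 of KPT-330 day 3 (0.090), replicate 2 of control day 6 (0.14) or replicate 1 of KPT-330 day 6 (0.086). In the other 6 types Txnip did not pass, with log2 folds from −0.44 in early Paneth-like to 0.42 in early enterocyte-like cells.

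The difference in the KPT-330 effect between enterocyte-like and Paneth-like cells was tested over 10 libraries that held both, a comparison chosen after these values were seen. For Txnip it was 1.69 ± 0.23 (SE, adjusted p = 5.98e-05, edgeR, 2.17% of 9870 genes called), and it passed in all 7 alternatives. Arrdc3 also differed, by 1.39 ± 0.26 (SE, adjusted p = 0.0022, edgeR), in all 7 alternatives. This is a difference of folds from unlike levels. In untreated organoids Arrdc3 was at 14.1 CPM in enterocyte-like cells (56 UMIs over 5 libraries) and at 93.0 CPM in Paneth-like cells. Foxo3 differed by −0.75 ± 0.20 (SE, adjusted p = 0.049, edgeR), and that call was lost with library totals (0.10), without either replicate of control day 6 (0.087 and 0.074) and without replicate 1 of KPT-330 day 6 (0.13).

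**Figure D4:**
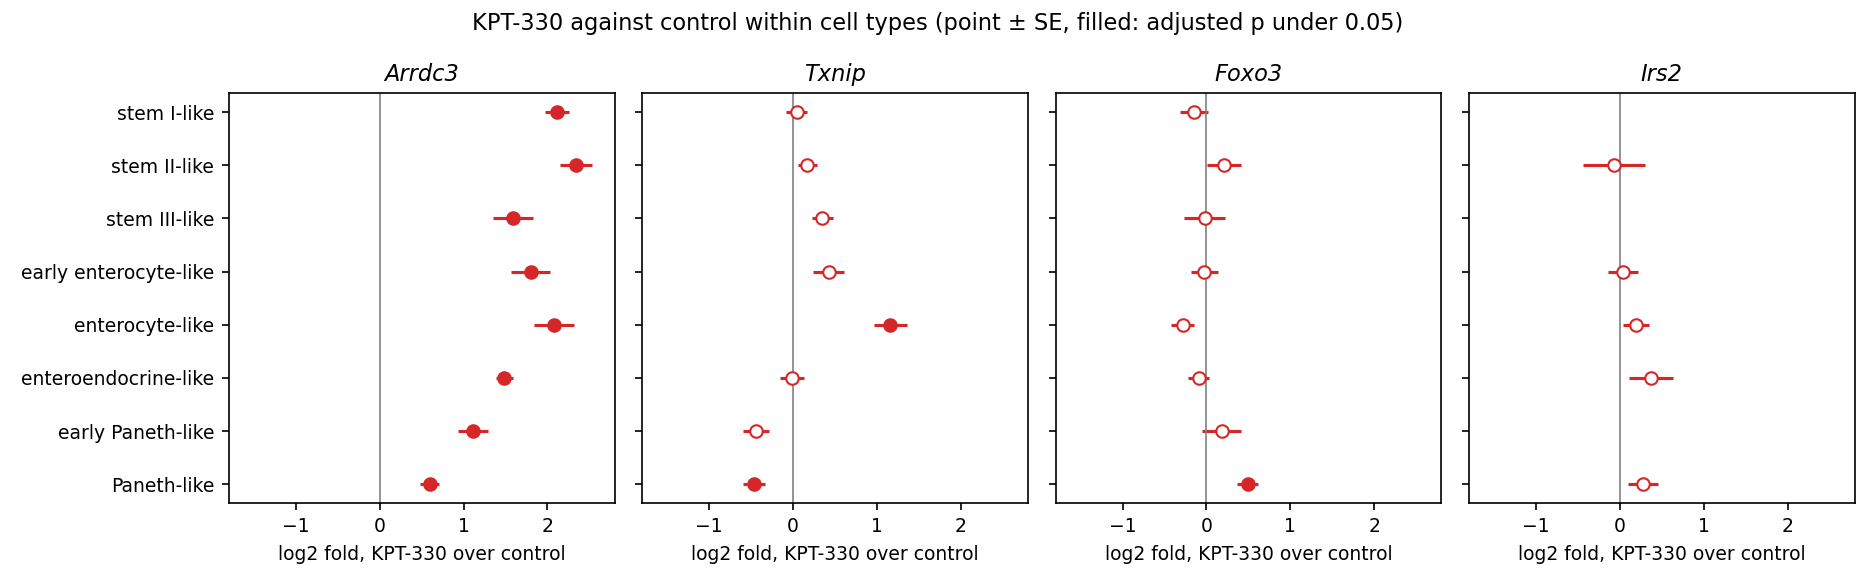
Log2 fold of KPT-330 over control (horizontal axis, point ± SE) in each of 8 named cell types for Arrdc3, Txnip, Foxo3 and Irs2, with filled points where the adjusted p was under 0.05 and no point where counts were too low to test. All 8 Arrdc3 points are filled, from 0.59 to 2.34, and Txnip has filled points at 1.16 in enterocyte-like and −0.46 in Paneth-like cells.

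In untreated organoids (ENR+CV and ENR+CD) the genes differed in which cell types held most of them, given here as CPM within the type, mean ± SD over libraries with at least 20 such cells, as a description with no test. Arrdc3 was at 110.4 ± 15.5 CPM in enteroendocrine-like (n = 8), 93.0 ± 22.8 in Paneth-like (n = 5) and 92.2 ± 24.7 in early Paneth-like cells (n = 3), then at 63.1 ± 15.9 in stem I-like (n = 6), 52.0 ± 14.9 in stem III-like (n = 9) and 36.5 ± 14.2 in stem II-like cells (n = 8). It was lowest in early enterocyte-like (23.3 ± 7.71, n = 6) and enterocyte-like cells (14.1 ± 9.51, n = 5). Of neighbours in this order, only early Paneth-like and stem I-like cells, and stem III-like and stem II-like cells, were further apart than the larger SD, and their ranges overlapped. Types occurred on different days, with Paneth-like and enterocyte-like cells from day 2 to 6 and early enterocyte-like cells from day 0 to 3, so a difference between types also holds one between days. On days 2 and 3 alone, where every named type was present (2 libraries, chosen after the data were seen), Arrdc3 had the same order of types, from 127.7 CPM in enteroendocrine-like to 7.42 in enterocyte-like cells. There, 8 of the 10 genes were highest in the same type as over all days, and Arrdc2 and Foxo1 were not.

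Txnip had another order. It was at 1290 ± 172 CPM in stem I-like cells (n = 6), 967 ± 298 in enteroendocrine-like (n = 8), 873 ± 155 in early Paneth-like (n = 3), 612 ± 193 in stem II-like (n = 8), 554 ± 147 in Paneth-like (n = 5), 479 ± 147 in stem III-like (n = 9), 395 ± 78.7 in early enterocyte-like (n = 6) and 184 ± 62.0 in enterocyte-like cells (n = 5). Enterocyte-like libraries, at 105 to 272 CPM, all lay below early enterocyte-like libraries, at 281 to 508 CPM. Stem I-like cells, whose marker list in the study, made on these samples, holds Txnip as that for enteroendocrine cells does, also had the highest mean Arrdc1 (76.6 ± 7.62 CPM, n = 6), Foxo3 (78.8 ± 12.1), Foxo4 (46.4 ± 7.08) and Insr (71.7 ± 13.5). Of Arrdc1, Foxo3, Foxo4 and Insr, only Arrdc1 was further from the next type than the larger SD, and all their ranges overlapped. Enteroendocrine-like cells were next for Foxo4 (39.5 ± 18.1 CPM, n = 8) and Insr (56.4 ± 20.9). On days 2 and 3 alone, Insr was at 64.7 CPM in stem I-like and 64.6 CPM in enteroendocrine-like cells. Foxo4 was then at 48.2 CPM in stem I-like and 47.4 CPM in early Paneth-like cells.

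Irs2 was highest in the absorptive cells, at 45.6 ± 7.66 CPM in enterocyte-like (n = 5) and 30.3 ± 15.7 in early enterocyte-like cells (n = 6). It was at 23.1 ± 8.44 in Paneth-like cells (n = 5) and between 9.90 and 14.8 in the other 5 types. Foxo3 was at 72.3 ± 17.1 CPM in enterocyte-like cells (n = 5), next to stem I-like cells and closer to them than either SD, and lowest in Paneth-like cells (40.1 ± 5.71, n = 5). Foxo1 ran from 12.9 ± 8.17 in early Paneth-like (n = 3) to 37.0 ± 20.1 in enteroendocrine-like cells (n = 8), and no pair of neighbours in its order was further apart than the larger SD. Arrdc4 ran from 47.3 ± 19.0 in enterocyte-like (n = 5) to 109.6 ± 42.6 in enteroendocrine-like cells (n = 8). Arrdc2 had means of 1.26 to 12.3 CPM over the 8 types.

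**Figure D5:**
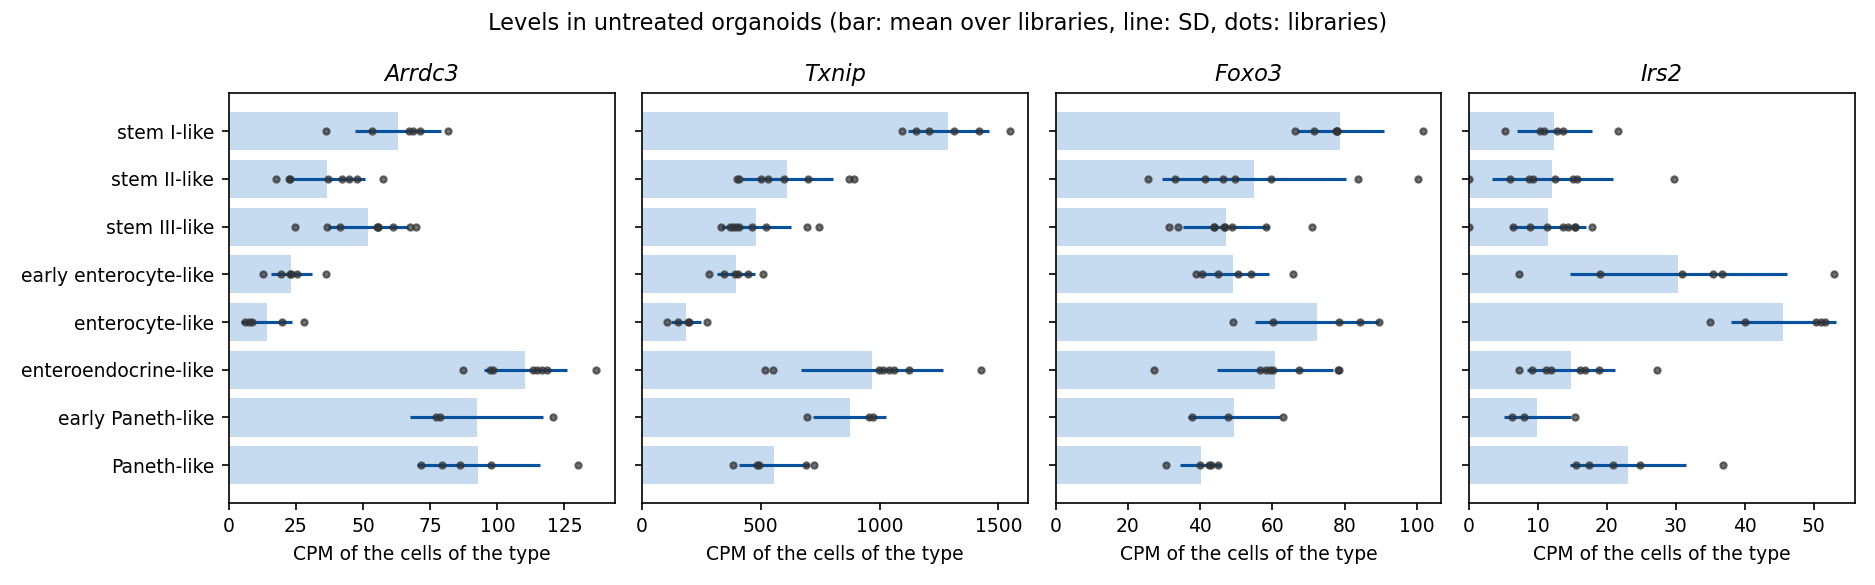
Level of Arrdc3, Txnip, Foxo3 and Irs2 in each named cell type of untreated organoids, as CPM of the type's UMIs (horizontal axis, from 0), with bars for the mean over libraries, lines for the SD and dots for single libraries. Arrdc3 is highest in enteroendocrine-like cells (110.4 CPM) and Txnip in stem I-like cells (1290 CPM), while Irs2 is highest in enterocyte-like cells (45.6 CPM).

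Several of the genes changed with time in untreated organoids. A smooth curve over day, fitted to the 9 untreated libraries, passed for 7 of the 10, against 49.2% of 12202 genes. They were Arrdc3 (adjusted p = 0.0021, edgeR), Txnip (0.0029), Foxo3 (0.0049), Arrdc4 (0.0051), Insr (0.013), Foxo4 (0.043) and Arrdc1 (0.046). Txnip was lowest at day 0.25 (344 CPM) and highest at day 4 (832 CPM), and Arrdc4 rose from 36.6 CPM at day 0.25 to 82.7 CPM at day 3. The calls of Txnip and Arrdc4 held in all 11 alternatives. With the ENR+CD libraries alone, Arrdc3 (adjusted p = 0.062, edgeR), Foxo3 (0.11) and Arrdc1 (0.089) no longer passed. The call of Insr was lost without replicate 2 of day 0 (0.086), and those of Foxo4 and Arrdc1 were each lost in 6 of 11 alternatives, among them leaving out replicate 1 of day 0 or replicate 2 of day 6. The early libraries are mostly those that list more genes. In the 6 untreated libraries that list fewer (replicate 2 of day 0 and days 2 to 6, chosen after the data were seen), 5 of the 10 passed, against 38.1% of 13194 genes. They were Foxo3 (adjusted p = 0.0070, edgeR), Insr (0.0078), Arrdc4 (0.021), Arrdc3 (0.026) and Txnip (0.037), and Foxo4 (0.093) and Arrdc1 (0.36) did not pass.

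Between day 0 in ENR+CV and day 6 in ENR+CD, 5 of the 10 were higher at day 6 and none lower, against 39.9% of 13455 genes called, 19.7% higher and 20.2% lower. Medium and time changed together, so they cannot be told apart. Arrdc3 stood at 26.1 and 35.4 CPM at day 0 and at 73.1 and 79.0 CPM at day 6, a log2 difference of 1.28 ± 0.19 (SE, adjusted p = 0.00042, edgeR) that held in all 9 alternatives. Txnip stood at 395 and 371 CPM at day 0 and at 577 and 804 CPM at day 6, a log2 difference of 0.84 ± 0.26 (SE, adjusted p = 0.025, edgeR). Arrdc4 (0.66 ± 0.21 SE, adjusted p = 0.026, edgeR), Insr (0.60 ± 0.20 SE, adjusted p = 0.036) and Foxo3 (0.59 ± 0.19 SE, adjusted p = 0.025) also passed. These 4 calls held in 4 or 5 of 9 alternatives. Each was lost without at least 1 replicate of each day and with library totals. Replicate 1 of day 0 is one of the libraries that list more genes, and without it Arrdc3, Foxo3 and Insr still passed and Txnip (adjusted p = 0.077, edgeR) and Arrdc4 (0.14) did not.

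Of the 23 other genes of the insulin, PI3K and AKT pathway that were tested against KPT-330, 3 were higher, none was lower and 20 did not pass, a median log2 fold of 0.06. Of all genes tested, 15% were higher and 14.6% lower, 29.6% in all, and the counts of these lists are to be read against that. The genes named from them had the same sign on all 6 days by CPM of plain library totals, a scale on which the median gene was lower by 0.26, so that genes that are lower met it more easily. One that was higher on all 6 days was Grb10, an adaptor that inhibits the insulin receptor, at 0.86 ± 0.28 (SE, adjusted p = 0.031, edgeR), and it passed in 6 of the 13 alternatives in which it was tested. Its levels were low, at 0.124 to 8.22 CPM in control and 0.765 to 10.5 CPM with KPT-330. Of 28 textbook FOXO target genes, 7 were higher, 5 lower and 16 did not pass (median 0.11). Among those with the same sign on all 6 days, the autophagy genes Gabarapl1 (0.61 ± 0.11 SE, adjusted p = 0.0021, edgeR) and Map1lc3b (0.44 ± 0.08 SE, adjusted p = 0.0020) and the zinc finger factor Klf6 (0.78 ± 0.14 SE, adjusted p = 0.0018) were higher. The death ligand Tnfsf10 (−1.19 ± 0.21 SE, adjusted p = 0.0016, edgeR), the cell cycle inhibitor Cdkn1b (−0.39 ± 0.10 SE, adjusted p = 0.0089) and the stress sensor Sesn3 (−0.36 ± 0.10 SE, adjusted p = 0.013) were lower. Map1lc3b lost its call with library totals and Sesn3 in 1 of 18 alternatives. Of 10 glucose-response genes of MondoA and ChREBP, 4 were higher, none lower and 6 did not pass (median 0.27). G6pc, the glucose-6-phosphatase of gluconeogenesis, was at 2.09 ± 0.23 (SE, adjusted p = 0.00013, edgeR) and Pklr, a pyruvate kinase, at 0.87 ± 0.12 (SE, adjusted p = 0.00047), both in all 18 alternatives. Of 12 arrestins and NEDD4-family genes, 2 were higher, 1 lower and 9 did not pass (median 0.11). They included the ligase Nedd4, at −0.24 ± 0.08 (SE, adjusted p = 0.048, edgeR, 8 of 18 alternatives), and its activator Ndfip2, at 0.39 ± 0.09 (SE, adjusted p = 0.0081, 16 of 18). Of the 7 genes of the thioredoxin system, 2 were higher and 5 did not pass (median 0.16).

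The genes whose log2 CPM followed Arrdc3 most closely over the 17 libraries were Lrrc8d (Pearson r = 0.96), AW209491 (0.94), Smim6 (0.92), Gpcpd1 (0.92) and Tbrg1 (0.91). The libraries share days and treatment, and those with and without KPT-330 are separate in Arrdc3, so the libraries form 2 groups in each of these correlations. For Txnip they were Pik3ap1 (0.93), Sorcs2 (0.93), Arrdc1 (0.91), Fbxl20 (0.90) and Phf21a (0.90). Arrdc4 followed Txnip with r = 0.78 (Spearman's rho 0.73), as a description over libraries that share medium, days and depth.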

How the data were processed

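The deposited files are raw UMI counts per gene and cell, which the authors made with bcl2fastq (named in the submitters' processing notes), the Drop-seq pipeline and STAR on mm10, and no normalization was applied to them. The annotation is not given in the sources used here. Cells were those of the authors' merged table. For each library the counts of kept cells were summed. edgeR 4.0.16 (quasi-likelihood, TMM, filterByExpr, Benjamini-Hochberg, threshold 0.05) compared KPT-330 with control with day as a term, and fitted the interactions, the trend with day (natural spline, 2 degrees of freedom) and the contrast of day 6 with day 0 (17 libraries). The scripts were tested on simulated data. The simulated folds were larger than those of Foxo3, Irs2 and Insr, so recovery of folds that small was not tested. Cell types came from Seurat 5.3.0 (SCTransform 0.4.2, 9 principal components, resolution 0.45), with 39 listed genes kept out of the variable genes. A cluster was named by marker lists unless markers of another type were more numerous among its 10 leading genes. Of 19877 cells, 69.3% had the same label from a score per cell. Per the study's methods, doublets had been removed before deposit, by DoubletFinder and by inspection. None were called again, and free RNA was not corrected for. Alternatives included DESeq2 1.42.0, other scalings, filters, labels and left-out libraries. Named genes were the 10 members, genes of the lists that passed with the same sign of the library-total CPM ratio (pseudocount 1) on all 6 days, the 5 nearest patterns of Arrdc3 and Txnip, and Xpo1. The members, lists and tests were chosen with earlier results of these data known.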

Additional observations from a re-analysis of the deposited data

Results flagged for a closer look

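The KPT-330 effect on Arrdc3 differed between differentiated-like and stem-like cells by −0.83 on the log2 scale, by the interaction test of edgeR (adjusted p = 0.0052). Replicate 1 of KPT-330 day 6 gave only 17 stem-like cells, and without it the difference still passed, as it did without each other replicate. The make-up of the 2 classes also differed between conditions, and its part in the difference was not tested.

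Between enterocyte-like and Paneth-like cells, the KPT-330 effect differed by 1.69 for Txnip (adjusted p = 5.98e-05, edgeR), by 1.39 for Arrdc3 (adjusted p = 0.0022) and by −0.75 for Foxo3 (adjusted p = 0.049). This comparison was chosen after the data were seen. For Txnip the effect was positive in enterocyte-like and negative in Paneth-like cells, in every alternative run. Paneth-like cells came mostly from different clusters in the 2 conditions (cluster 0 with KPT-330, cluster 2 in control), and the part of that shift in these values was not tested.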

How the results depend on the processing

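Arrdc3 kept its direction and its call between KPT-330 and control in all 18 alternatives over all cells and in every alternative that could be fitted within the 8 cell types. Leaving out single replicates could not test the stem II- and stem III-like calls, whose fits hold no libraries of days 3 and 6. Library totals in place of TMM turned 6 folds that were positive with TMM to −0.18 (Arrdc1), −0.046 (Arrdc4), −0.0086 (Foxo1), −0.033 (Foxo3), −0.13 (Foxo4) and −0.013 (Insr), which follows from the shift of all genes by −0.26, and gave 5124 called genes (452 higher, 4672 lower) in place of 3481 (1764 higher, 1717 lower). Genes called fell to 1998 without day 3 and 2293 without day 4, with fewer samples, and were 2786 to 3768 without single replicates. For the late against early difference, 349 genes were called without a filter, 54 by DESeq2 and 0 to 14 without single replicates. There, Foxo1 turned to −0.20 with library totals, and Arrdc2 to 0.23 with late as days 2 to 6 and to 0.041 without replicate 1 of KPT-330 day 6 (−0.26 to 0.041 over left-out replicates). For day 6 against day 0, 3398 to 4118 genes were called without single replicates in place of 5368, Arrdc2 ran from −0.070 without replicate 1 of day 0 to 0.99 without replicate 2, and Foxo1 from −0.48 to 0.12 likewise. For the trend with day, 4816 to 5711 genes were called without single replicates in place of 6002. Within cell types, calls of the 10 genes were 7 with at least 50 cells, since stem II-, stem III- and enterocyte-like cells could then not be fitted, and 9 to 14 without single replicates, in place of 11. For differentiated-like against stem-like cells, 204 genes were called with labels by score, 146 with finer clusters and 290 to 616 without single replicates, in place of 397. There Arrdc4 turned to 0.16 (labels by score), 0.033 (finer clusters) and 0.094 (without replicate 2 of KPT-330 day 3, from −0.080 without replicate 2 of KPT-330 day 6). Insr turned to 0.0098 (labels by score) and ran from −0.13 to 0.052 without single replicates, the highest without replicate 2 of KPT-330 day 3. Arrdc1 turned to −0.028 without replicate 1 of KPT-330 day 3 and to −0.0031 without replicate 2 of KPT-330 day 6, and was 0.095 without replicate 2 of KPT-330 day 3. None of these reversed folds passed the test, and the cause was not tested except where named. The cell type with the highest level in untreated organoids stayed the same for 8 to 10 of the 10 genes, the lowest with days 2 and 3 only. Where a group was left with 1 library, it was assumed to vary like the others.

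With the replicate number as a block, 3773 genes were called between KPT-330 and control, Arrdc4 (adjusted p = 0.020, edgeR) and Foxo1 (0.044) also passed, and no call of the 10 genes was lost there. With the block, Arrdc1 (0.084) and Foxo4 (0.076) lost their calls in the trend with day, and Arrdc1 (0.049) passed between day 6 and day 0. Replicate 1 minus 2 correlated between the groups of day 6 (r = 0.47 over 11777 genes). It was 0.135 and 0.132 between day 0 and the groups of day 6, and −0.044 to 0.087 in the 3 pairs with KPT-330 day 3. Since not every pair was over 0.1 and the labels name no shared batch, the numbers were not taken to pair the libraries. At 3.16 to 11.5 CPM, Arrdc2 could be tested in 1 of 8 types.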
